A study of Mus musculus with 9 samples.

Results

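Klf2, Klf4, Thbd, Piezo1, Mef2c and Nfe2l2 were followed as 6 genes of the endothelial response to blood flow, out of 21887 protein-coding genes of the mouse. They were listed by name. A peak counted for a gene if its centre fell within the gene body, and failing that for whichever gene ended closest, up to 100 kb away. The 6 genes held between 64 and 85 peaks per library, of 59793 to 94646 in a whole library.

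The peaks came from ATAC-seq, which maps open chromatin by the insertion of a transposase, on endothelial cells sorted by flow cytometry from mouse lungs. There were 3 infant, 3 young adult and 3 mature adult libraries, and age is the only difference between groups that the labels give. The labels state no age in days, sex, strain, genotype or sorting marker, and not whether a library is 1 animal or a pool. Where libraries of an age do not come from separate animals, the p-values below measure technical spread.

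Endothelial cells sense the drag of flowing blood through channels such as Piezo1 and through junctional complexes. The kinases MEKK3, MEK5 and ERK5 then activate MEF2 factors, among them the product of Mef2c, which bind the promoters of Klf2 and Klf4. These zinc-finger factors hold endothelium in an anticoagulant, anti-inflammatory state, in which thrombomodulin, the product of Thbd, is a target. Nfe2l2 encodes NRF2, a factor for antioxidant genes that steady flow also activates.

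Promoter sequences were set beside the peaks, since the position of a peak at a gene start was one of the measures compared. RefSeq windows on GRCm38.p6, the same build as mm10, were 300 bases long, with 250 bases before and 50 bases from the annotated start. Entries were found for 5 of the 6 genes, with 3 for Mef2c; Thbd had none. They are printed 5′ to 3′ on the strand of the gene. Capitals mark a MEF2 site, the antioxidant response element core TGACNNNGC, or the Krüppel-like factor motif CACCC, which reads GGGTG where it lies on the opposite strand. The Klf2 and Klf4 windows are shown as the shared end point of the pathway, Nfe2l2 for its own response element, and the second Mef2c window as the only one whose peak cover changed with age.
Klf2, chr8:72318812-72319111, plus strand: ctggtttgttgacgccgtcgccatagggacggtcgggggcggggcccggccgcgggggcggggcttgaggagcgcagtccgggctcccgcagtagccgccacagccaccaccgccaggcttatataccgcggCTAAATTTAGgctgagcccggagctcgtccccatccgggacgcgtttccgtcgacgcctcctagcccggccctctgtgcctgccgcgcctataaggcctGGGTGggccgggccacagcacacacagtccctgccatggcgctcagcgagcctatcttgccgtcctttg
Klf4, chr4:55532426-55532725, minus strand: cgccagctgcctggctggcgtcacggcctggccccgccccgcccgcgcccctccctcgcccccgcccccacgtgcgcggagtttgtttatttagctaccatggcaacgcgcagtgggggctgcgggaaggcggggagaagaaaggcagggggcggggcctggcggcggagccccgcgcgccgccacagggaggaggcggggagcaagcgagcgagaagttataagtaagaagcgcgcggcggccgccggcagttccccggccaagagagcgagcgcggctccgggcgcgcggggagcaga
Nfe2l2, chr2:75704614-75704913, minus strand: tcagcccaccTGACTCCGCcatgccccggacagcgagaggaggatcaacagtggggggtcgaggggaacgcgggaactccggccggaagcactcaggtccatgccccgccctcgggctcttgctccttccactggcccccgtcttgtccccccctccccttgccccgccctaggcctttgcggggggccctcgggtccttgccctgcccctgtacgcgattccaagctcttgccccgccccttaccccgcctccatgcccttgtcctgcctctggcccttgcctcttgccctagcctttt
Mef2c, chr13:83523406-83523705, plus strand: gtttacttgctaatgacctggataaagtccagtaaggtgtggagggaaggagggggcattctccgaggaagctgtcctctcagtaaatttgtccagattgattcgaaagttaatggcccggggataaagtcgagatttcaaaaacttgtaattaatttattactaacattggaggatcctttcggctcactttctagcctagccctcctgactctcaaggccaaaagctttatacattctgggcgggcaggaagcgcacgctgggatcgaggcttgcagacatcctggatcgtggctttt

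The Klf2 window held a MEF2 site starting 118 bases before the gene start. It is a palindrome and so matched on both strands, and 3.19% of the 32851 windows in the table held such a site on either strand. A CACCC lay on the opposite strand 19 bases before the Klf2 start, a motif that 57.5% of windows held. The Nfe2l2 window held TGACTCCGC, a match to the antioxidant core, starting 240 bases before its start, and 12.4% of windows had a match. The Klf4 window and the second Mef2c window held no MEF2 site, CACCC or antioxidant core. GGAA, the core of ETS sites, was in all 7 windows of these genes and in 96.0% of all windows, and TGANTCA, the AP-1 site, was in the third Mef2c window and in 7.81% of all windows. In the Klf2 and Nfe2l2 windows none of these matches overlapped another. A match describes letters and not the binding of a factor.

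Open chromatin at the gene starts was shared by the ages. The Klf2, Klf4, Piezo1 and Nfe2l2 windows were covered by peaks over all 300 bases in each of the 9 libraries, as were 23.9% of the 32851 windows, while 36.8% were touched by a peak in all 9. The first Mef2c window, at chr13:83503784-83504083, and the third, at chr13:83573357-83573656, had no covered base in any library. Only the second Mef2c window differed. Its cover was 300, 300 and 300 bases in infant libraries, 126, 154 and 91 bases in young adult libraries, and 90, 109 and 152 bases in mature adult libraries, so that infant libraries stood apart from both adult ages. The MEF2 site of Klf2 and the antioxidant core of Nfe2l2 lay in windows that were covered in full at every age.

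The lists themselves shortened with age, which bears on every count. Infant lists held 88856 to 94646 peaks, young adult lists 67550 to 68366 and mature adult lists 59793 to 64208, with mean peak widths of 487 to 564 bp over the 9 libraries. Sequencing depth is unknown, since the lists give no reads, and chromatin may be open where no peak was listed. The third young adult library held 4901 peaks found in no other library and the first mature adult library 4536, and both had the lowest mean widths (487 and 495 bp), so values without these libraries are given where a call changed. All 10 endothelial markers had peaks in every library. They summed to 217 to 230 peaks in infant, 188 to 206 in young adult and 171 to 201 in mature adult libraries. As counted, 4 of the 10 were called lower in mature adults, where 29.4% of all genes were. After scaling to the length of the list, 6 of the 10 were called higher and none lower. Of all genes, 30% were then called higher and 13.8% lower. Of the other marker lists, Sftpc, Lyz2, Cd68, Itgam, Pdpn and Lum were at 0 in all 9 libraries. Others had peaks in every library, among them Ptprc (4 to 7), Epcam (3 to 10), Cdh1 (4 to 8), Pdgfra (9 to 17) and Lyve1 (4 to 6). The 10 fibroblast and mural markers summed to 79 to 81 peaks in infant libraries, 28 to 29 in young adult libraries and 24 to 25 in mature adult libraries. Of the 8 tested, 7 were called lower in mature adults on numbers as counted and 5 after scaling. The shares of all genes were 29.4% and 13.8%. Tbx5 was at 0 in mature adults. The 6 lymphatic markers summed to 32 to 35, 20 to 22 and 21 to 27 peaks in the same order of age, the 8 epithelial markers to 24 to 31, 14 to 19 and 14 to 15, and the 8 leukocyte markers to 12 to 13, 8 to 13 and 8 to 9. Their part in the results below was not tested. In sorted cells measured in bulk, fewer cells with an open region and a weaker opening in each cell cannot be told apart.

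**Figure D1:**
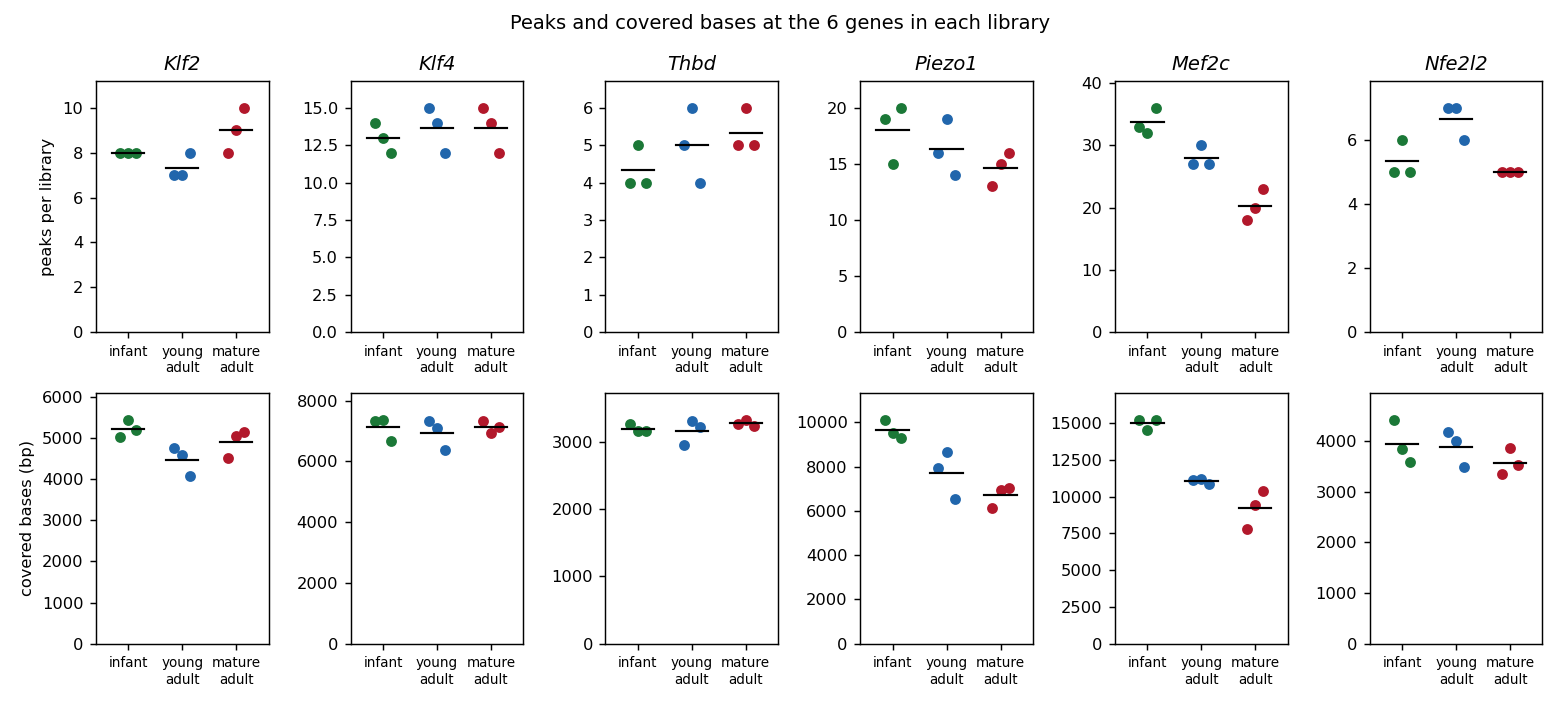
Peaks per library (upper row) and bases covered by peaks in bp (lower row) at each of the 6 genes, with a point per library, a bar at the mean of 3 libraries and axes from 0. Mef2c points lie lower at each later age, with 32 to 36 peaks in infant, 27 to 30 in young adult and 18 to 23 in mature adult libraries, while Klf2, Klf4 and Thbd stay within a few peaks.

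Piezo1, the mechanically gated cation channel, spans 69632 bp on the minus strand of chromosome 8, and 92.5% of its peaks lay inside the gene body. It had 19, 15 and 20 peaks in infant libraries, 16, 19 and 14 in young adult libraries, and 13, 15 and 16 in mature adult libraries, and the ages overlapped. Covered bases were 10126, 9507 and 9286 bp in infant libraries, 7955, 8670 and 6524 bp in young adult libraries, and 6142, 6951 and 7026 bp in mature adult libraries. Every adult library thus lay below every infant library in covered bases, as was so for 69.9% of the genes tested in mature adults and 59% in young adults. As counted, covered bases fell in mature adults by 0.52 on the log2 scale (SE 0.11, limma with Benjamini-Hochberg adjustment over 14452 genes, adjusted p = 0.00497) and in young adults by 0.32 (SE 0.11, limma adjusted p = 0.045). Of all genes, 57.1% were called in mature adults and 40% in young adults on this scale, nearly all of them lower. Scaled to the covered length of the list, Piezo1 changed by 0.10 in mature adults (limma adjusted p = 0.184) and 0.17 in young adults (limma adjusted p = 0.061), both above 0. The young adult value was called higher without young adult replicate 3 (0.23, limma adjusted p = 0.0139). With an equal number of the widest peaks per library, Piezo1 peak numbers were called higher, by 0.48 in mature adults (limma adjusted p = 0.0112) and 0.57 in young adults (limma adjusted p = 0.00701). The narrowest peak kept by this rule was 354, 323 and 299 bp in infant libraries, 196, 205 and 175 bp in young adult libraries, and 150, 162 and 154 bp in mature adult libraries. Narrow infant peaks were thus left out where adult peaks of the same width were kept.

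Within Piezo1, 11 of 20 merged regions had a peak in all 9 libraries. The region at the gene start covered 1217, 1323 and 1100 bp in infant libraries, 1121, 1193 and 1102 bp in young adult libraries, and 1093, 1186 and 1107 bp in mature adult libraries, which overlapped. Lower and higher regions lay side by side in the body. The region 19.7 kb into the gene, chr8:122530972-122532361, covered 1097, 1046 and 756 bp in infant libraries, 723, 784 and 839 bp in young adult libraries, and 404, 444 and 668 bp in mature adult libraries. It fell in mature adults by 0.78 on the log2 scale (SE 0.17, limma over 83813 regions, adjusted p = 0.00846), and each of 14 alternatives kept the call.

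The region 13.7 kb into Piezo1 covered 1012, 1191 and 808 bp in infant libraries, 328, 844 and 0 bp in young adult libraries, and 0, 0 and 230 bp in mature adult libraries. It was lower in each mature adult library than in each infant library, as 53.7% of the 83813 regions tested were (44.4% in young adults), and its call (limma adjusted p = 0.0211) was lost without any 1 of the 3 infant libraries or of mature adult replicates 1 and 2 (limma adjusted p between 0.0504 and 0.0706). The region 50.3 kb into the gene went the other way. It covered 247, 264 and 253 bp in infant libraries, 388, 451 and 255 bp in young adult libraries, and 448, 447 and 422 bp in mature adult libraries, a rise in mature adults of 0.54 on the log2 scale (SE 0.15, limma adjusted p = 0.0199). That call was lost without infant replicate 1 or 3 or without mature adult replicate 1 or 2 (limma adjusted p between 0.0501 and 0.0589). A region 26.2 kb into the gene had no peak in infant libraries. It covered 254, 218 and 272 bp in young adult libraries and 0, 224 and 150 bp in mature adult libraries. It entered the fit only through these adult peaks, so no test is given for it. The region 30.9 kb into the gene covered 307, 297 and 290 bp in infant libraries, 281, 304 and 226 bp in young adult libraries, and 150, 180 and 154 bp in mature adult libraries. Its fall of 0.53 in mature adults (SE 0.12, limma adjusted p = 0.0106) turned to a change of 0.71 when each library kept an equal number of its widest peaks (limma adjusted p = 0.113). In each infant library the region's cover was below the narrowest peak kept, 354, 323 and 299 bp. A region at the 3′ end of Piezo1 also lies in Ctu2, which overlaps it, and cannot be given to either gene.

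Mef2c, the MEF2 factor that relays the kinase signal and also shapes vessels in the embryo, lost the most peaks of the 6. It had 33, 32 and 36 peaks in infant libraries, 27, 30 and 27 in young adult libraries, and 18, 20 and 23 in mature adult libraries. No library of an older age reached a library of a younger one. Of all 14452 genes tested, 35.6% had every mature adult library below every infant library, 27.4% every young adult library below every infant library, and 4.39% every mature adult library below every young adult library. Covered bases were 15209, 14513 and 15231 bp in infant libraries, 11106, 11191 and 10833 bp in young adult libraries, and 7780, 9430 and 10398 bp in mature adult libraries, again without overlap. Mature adult libraries were all below infant ones in covered bases at 69.9% of genes, young adult ones at 59%, and mature adult libraries were all below young adult ones at 11.9%.

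As counted, Mef2c peak numbers fell in mature adults by 0.72 on the log2 scale of number plus 0.5 (SE 0.10, limma adjusted p = 0.00267). It was the only called member of the 6, and 29.4% of genes were called lower. The median gene changed by -0.31. Fibroblast and mural marker peaks were lower in the same libraries, and their part in the Mef2c values was not tested. After scaling to the length of the list the change was -0.18 (limma adjusted p = 0.143), and it was called only without mature adult replicate 3 (-0.26, limma adjusted p = 0.0402). Against young adults, mature adults changed by -0.46 as counted (limma adjusted p = 0.142) and -0.34 scaled (limma adjusted p = 0.235).

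As counted, Mef2c peaks were fewer in mature adults than in infants both inside and outside the gene. These numbers are not scaled to the lists, which shortened with age. The test was run at the listed genes alone, so no share of all genes stands beside it. Peaks inside the body numbered 26 ± 1 in infant libraries, 24.7 ± 2.08 in young adult libraries and 17.7 ± 3.06 in mature adult libraries (SD, n = 3 each; two-sided exact permutation test on the F ratio, 280 arrangements, p = 0.0179). Peaks outside it numbered 7.67 ± 1.53 in infant libraries, 3.33 ± 0.577 in young adult libraries and 2.67 ± 0.577 in mature adult libraries (SD, n = 3 each; exact permutation p = 0.0214). The smallest p this test can give is 0.00357, and these values are not adjusted for the other genes and measures tested. Of the 10 regions outside the gene, 8 lay at least 48.3 kb past its 3′ end, as the map of Mef2c and Piezo1 regions shows.

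Of 41 merged regions at Mef2c, 13 had a peak in all 9 libraries. The region around the second annotated start, chr13:83523156-83524000, covered 761, 745 and 839 bp in infant libraries, 416, 553 and 386 bp in young adult libraries, and 377, 399 and 549 bp in mature adult libraries. It fell by 0.67 on the log2 scale in mature adults (SE 0.14, limma adjusted p = 0.00629) and by 0.64 in young adults (SE 0.14, limma adjusted p = 0.0095), and all 14 alternatives kept both calls. Its neighbour 1 kb downstream, chr13:83524130-83524982, stayed between 813 and 848 bp in all 9 libraries.

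Another region beside them, chr13:83525089-83525929, covered 655, 579 and 593 bp in infant libraries, 400, 227 and 330 bp in young adult libraries, and 150, 227 and 0 bp in mature adult libraries. Both adult ages lay below the infant libraries and met each other at 227 bp. Mature adults lay wholly below infants at 53.7% of the regions tested, and young adults at 44.4%. The fall of 1.56 on the log2 scale in mature adults (SE 0.33, limma adjusted p = 0.00656) was kept by 14 of 14 alternatives. Deeper in the gene, chr13:83604397-83605233 covered 801, 829 and 669 bp in infant libraries, 462, 474 and 489 bp in young adult libraries, and 0, 177 and 361 bp in mature adult libraries. Its call (limma adjusted p = 0.0112) was lost when each library kept an equal number of its widest peaks (limma adjusted p = 0.0523).

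Smaller Mef2c regions were present at some ages only. The region chr13:83580978-83581221 covered 226, 207 and 215 bp in infant libraries and 243, 150 and 173 bp in young adult libraries, and had no peak in mature adults. It entered the fit only through infant and young adult peaks, so no test is given for it. The regions 50.8 kb and 114 kb into the gene had peaks in the 3 infant libraries alone, of 176 to 487 bp and of 167 to 366 bp. In all, 12 of the 29 Mef2c regions tested (41.4%) were called lower in mature adults and none higher, beside 38.8% lower and 3.81% higher of all regions tested. The share of lower calls was thus near that of all regions. The 12 include the regions of this paragraph, which entered the fit only through younger peaks, so the count carries no test.

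**Figure D2:**
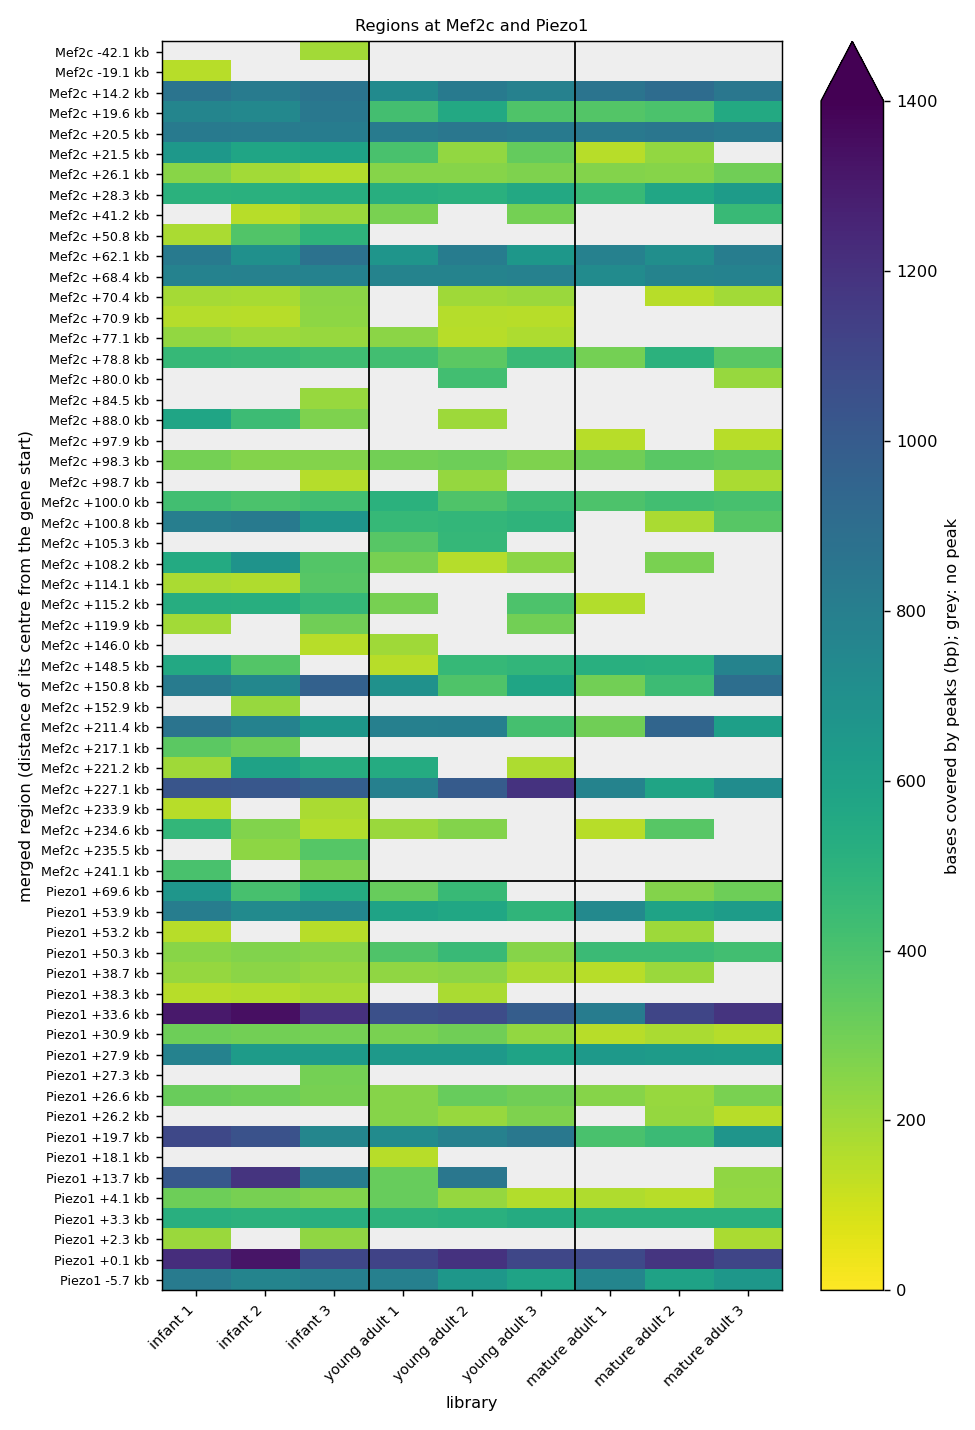
Bases covered by peaks (colour, bp) in each merged region of Mef2c and Piezo1 (rows, by the distance of the region's centre from the gene start in kb) in each of the 9 libraries (columns), with grey for no peak. Rows with cover in every library alternate with rows that are filled in infant libraries and pale or grey in mature adult ones, and 13 of 41 Mef2c regions have a peak in all 9 libraries.

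Klf2, a zinc-finger factor that steady flow induces, differed little in peak number between ages. It had 8, 8 and 8 peaks in infant libraries, 7, 7 and 8 in young adult libraries, and 8, 9 and 10 in mature adult libraries, which overlapped. All but 1 of them in each library lay outside its body of 2593 bp. Covered bases were 5018, 5452 and 5197 bp in infant libraries, 4750, 4597 and 4075 bp in young adult libraries, and 4508, 5056 and 5148 bp in mature adult libraries. Every young adult library lay below every infant library in covered bases, as at 59% of genes, and the mature adult libraries overlapped the infant ones. Scaled to the length of the list, the number rose by 0.67 in mature adults (SE 0.08, limma adjusted p = 0.00043) and by 0.28 in young adults (SE 0.08, limma adjusted p = 0.0392). As counted the changes were 0.16 (limma adjusted p = 0.227) and -0.12 (limma adjusted p = 0.412). The young adult call was lost without any 1 of infant replicates 1 to 3, young adult replicates 1 to 3 and mature adult replicate 2 (limma adjusted p between 0.0514 and 0.113). Between mature and young adults the scaled change of 0.39 was not called (limma adjusted p = 0.143) and was called without young adult replicate 3 (0.46, limma adjusted p = 0.0467).

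At Klf2, 6 of 9 merged regions had a peak in all 9 libraries. The gene start, chr8:72318530-72319747, covered 1217, 1150 and 1105 bp in infant libraries, 1115, 1154 and 1105 bp in young adult libraries, and 1088, 1119 and 1138 bp in mature adult libraries. A region 23.4 kb upstream, chr8:72295064-72296260, was as wide and as steady, between 1101 and 1141 bp in the 9 libraries. The region 15.4 kb upstream covered 599, 537 and 547 bp in infant libraries, 919, 855 and 626 bp in young adult libraries, and 696, 645 and 600 bp in mature adult libraries. Each adult library lay above the infant ones there, as at 5.78% of regions in mature adults and 5.72% in young adults. The young adult call (limma adjusted p = 0.0356) held under only 5 of 14 alternatives, with limma adjusted p up to 0.105, and was lost without any 1 infant library, young adult replicate 1 or 2, or mature adult replicate 2 or 3.

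At either side of Klf2 a region differed with age. The region chr8:72325424-72325912, 6.6 kb downstream of the start, covered 255, 488 and 384 bp in infant libraries and had no peak in the 6 adult libraries. A region 22.0 kb upstream, chr8:72296936-72297257, covered 0, 0 and 0 bp in infant libraries, 0, 0 and 261 bp in young adult libraries, and 154, 161 and 276 bp in mature adult libraries. The downstream region entered the fit only through its infant peaks, and the upstream region only through its adult peaks. No test is given for either.

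Klf4, the paralogue that shares many Klf2 targets, had regions spread from 61.5 kb downstream to 99.8 kb upstream of its start on chromosome 4. It had 14, 13 and 12 peaks in infant libraries, 15, 14 and 12 in young adult libraries, and 15, 14 and 12 in mature adult libraries. Covered bases were 7337, 7377 and 6663 bp in infant libraries, 7321, 7103 and 6364 bp in young adult libraries, and 7324, 6948 and 7144 bp in mature adult libraries. Both measures overlapped between all ages. Scaled numbers rose by 0.59 in mature adults (SE 0.12, limma adjusted p = 0.00456) and by 0.47 in young adults (SE 0.12, limma adjusted p = 0.0153), against 0.07 as counted in either age. The young adult call was lost without infant replicate 3 (limma adjusted p = 0.0515) or young adult replicate 1 (limma adjusted p = 0.05002).

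Some regions at Klf4 had peaks at some ages only, and those named here were picked for that. Of its 22 regions, 1 was held by all adult and no infant libraries, beside 0.686% of all merged regions. Another 1 was held by the mature adult libraries alone, beside 0.116%. The region chr4:55475586-55476066, 56.6 kb downstream of the Klf4 start, covered 0, 0 and 0 bp in infant libraries, 448, 411 and 383 bp in young adult libraries, and 449, 348 and 461 bp in mature adult libraries. It entered the fit only through these adult peaks, so no test is given for it. A neighbour 57.4 kb downstream covered 0, 0 and 0 bp in infant libraries, 245, 260 and 328 bp in young adult libraries, and 232, 0 and 318 bp in mature adult libraries. This neighbour also entered the fit only through adult peaks and is given no test. The region chr4:55570160-55570472, 37.8 kb upstream, had peaks of 215, 258 and 259 bp in mature adult libraries and none in the 6 others. It entered the fit only through these mature adult peaks, so no test is given for it. In the other direction, a region 51.9 kb downstream covered 212, 394 and 216 bp in infant libraries, 216, 379 and 0 bp in young adult libraries, and 0, 0 and 0 bp in mature adult libraries. It entered the fit only through infant and young adult peaks and is given no test.

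Regions open at all ages at Klf4 also shifted in width. The region over the start, chr4:55532111-55533542, covered 1408, 1401 and 1339 bp in infant libraries, 1170, 1196 and 1129 bp in young adult libraries, and 1335, 1209 and 1327 bp in mature adult libraries. It fell by 0.22 on the log2 scale in young adults (SE 0.04, limma adjusted p = 0.00557, kept by 14 of 14 alternatives), and the mature adult values overlapped those of neither age. Of all regions tested, 53.7% lay wholly below infants in mature adults and 44.4% in young adults. The region chr4:55604610-55605732, 72.7 kb upstream, covered 897, 849 and 875 bp in infant libraries, 1073, 1028 and 955 bp in young adult libraries, and 1102, 1097 and 1122 bp in mature adult libraries. It rose by 0.30 in mature adults (SE 0.04, limma adjusted p = 0.0009) and by 0.19 in young adults (SE 0.04, limma adjusted p = 0.0114), while most regions called in the genome were lower. Both calls were lost among the widest peaks (limma adjusted p = 0.0511 and 0.398).

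Thbd, whose product binds thrombin and turns it to the activation of protein C, is a small gene of 3718 bp on chromosome 2. It had 4, 5 and 4 peaks in infant libraries, 5, 6 and 4 in young adult libraries, and 5, 6 and 5 in mature adult libraries. Covered bases were 3258, 3160 and 3160 bp in infant libraries, 2951, 3313 and 3217 bp in young adult libraries, and 3264, 3328 and 3232 bp in mature adult libraries. The ages overlapped in both. Scaled numbers rose by 0.77 in mature adults (SE 0.15, limma adjusted p = 0.00505) and by 0.56 in young adults (SE 0.15, limma adjusted p = 0.0253), against 0.27 and 0.18 as counted. The young adult call was lost without infant replicate 1 or 3 or young adult replicate 1 or 2 (limma adjusted p between 0.0647 and 0.0833).

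A region by Thbd was present in adults alone. It lay at chr2:148402153-148402655, 2.07 kb outside the lower end of the gene, and covered 0, 0 and 0 bp in infant libraries, 471, 437 and 502 bp in young adult libraries, and 487, 471 and 469 bp in mature adult libraries. It entered the fit only through these adult peaks, so no test is given for it. A fold against infant libraries is not given, since they hold no peak. The widest Thbd region, chr2:148407227-148408857 at the upper end of the gene, covered 1598, 1398 and 1577 bp in infant libraries, 1365, 1346 and 1342 bp in young adult libraries, and 1334, 1212 and 1361 bp in mature adult libraries. Its lower cover in mature adults, by -0.20 on the log2 scale (limma adjusted p = 0.0229), was not called without infant replicate 1 or 3 or mature adult replicate 2 (limma adjusted p between 0.0609 and 0.0832), without both libraries that stand apart (0.0557) or among the widest peaks (0.244).

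Nfe2l2, the gene of NRF2, had the most peaks on average in young adults, where its numbers overlapped those of infants. It had 5, 6 and 5 peaks in infant libraries, 7, 7 and 6 in young adult libraries, and 5, 5 and 5 in mature adult libraries. Every mature adult library had fewer than every young adult library, as 4.39% of genes did. Covered bases were 4427, 3846 and 3581 bp in infant libraries, 4186, 4007 and 3481 bp in young adult libraries, and 3344, 3862 and 3528 bp in mature adult libraries, which overlapped. Scaled numbers rose by 0.69 in young adults (SE 0.10, limma adjusted p = 0.00109) and by 0.42 in mature adults (SE 0.10, limma adjusted p = 0.0109), against 0.30 (limma adjusted p = 0.054) and -0.08 (limma adjusted p = 0.557) as counted. The region chr2:75689282-75689744, 15.2 kb into the gene, covered 459, 233 and 333 bp in young adult libraries and had no peak at the other ages. It entered the fit only through these young adult peaks, so no test is given for it.

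The start of Nfe2l2 held the widest region of the 6 genes, with 1696 to 1773 bp in the 9 libraries. A region 63.9 kb upstream covered 791, 622 and 682 bp in infant libraries, 352, 318 and 619 bp in young adult libraries, and 250, 291 and 406 bp in mature adult libraries. Every adult library was below every infant library, as at 53.7% of the regions tested in mature adults and 44.4% in young adults. It fell by 0.87 in mature adults (SE 0.21, limma adjusted p = 0.012), a call lost without infant replicate 1 (-0.80, limma adjusted p = 0.0502). This region lay in the gap of 127514 bp between Nfe2l2 and Agps, with its centre nearer Agps. It was counted here because the peak of at least 1 library was centred nearer Nfe2l2, so it cannot be given to either gene.

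**Figure D3:**
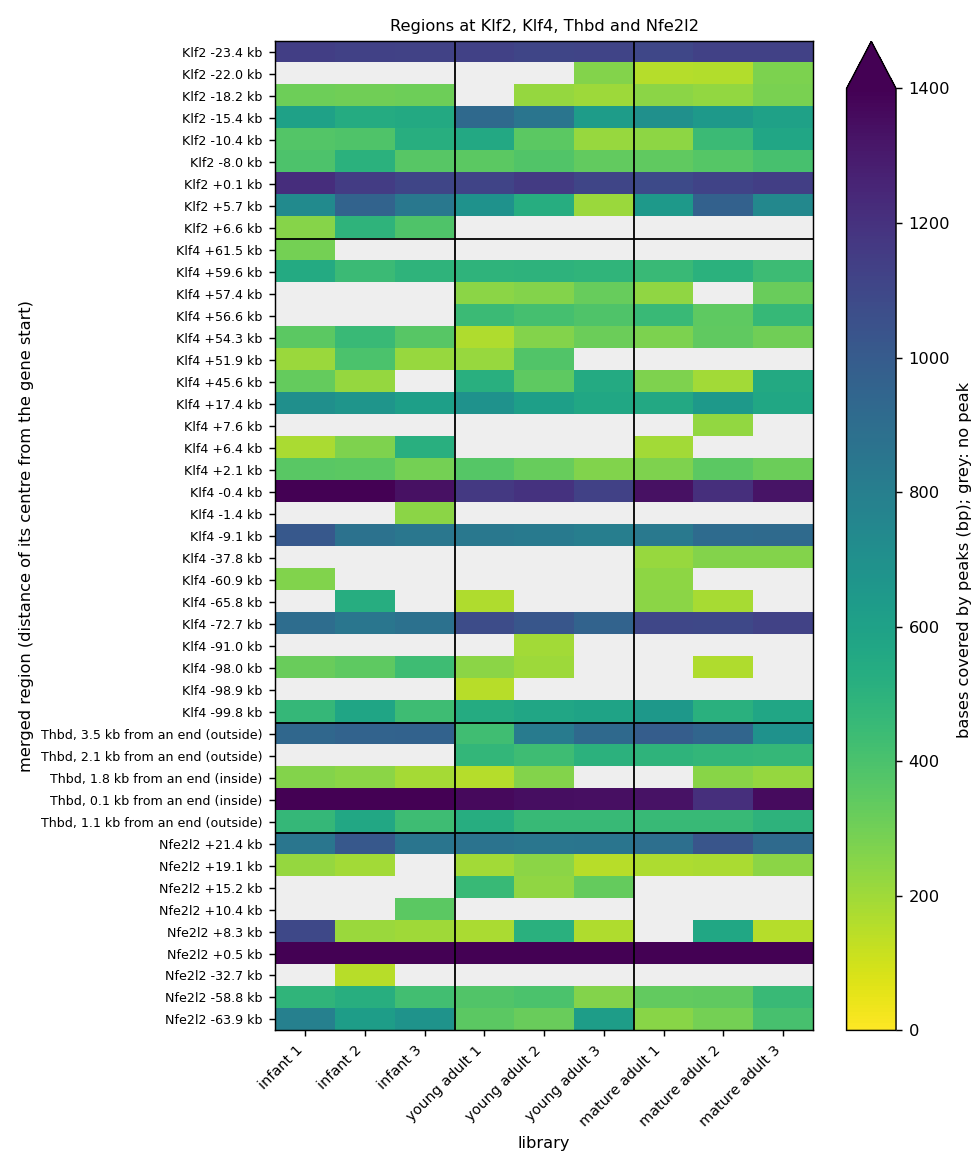
Bases covered by peaks (colour, bp) in each merged region of Klf2, Klf4, Thbd and Nfe2l2 (rows, by the distance of the region's centre from the gene start in kb, or from the nearest gene end for Thbd) in each of the 9 libraries (columns), with grey for no peak. Gene-start rows are dark in all 9 libraries, while the Klf4 row at 56.6 kb and the Thbd row 2.1 kb outside its end are filled in the 6 adult libraries alone and the Klf2 row at 6.6 kb in the 3 infant libraries alone.

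Over the 6 genes together, 106 of the 126907 merged regions of the genome were held. A peak in all 9 libraries was found at 45 of them, 42.5%, against 32.4% of all regions. Peaks in all infant and no adult libraries were found at 3, 2.83%, against 9.70% of all regions, and peaks in all adult and no infant libraries at 2, 1.89%, against 0.686%. Regions with a peak in at least 3 libraries were tested, 84 of the 106. Mature adult regions were called against infant ones at 28 of the 84 (33.3%), 6 higher and 22 lower, where 42.6% of the 83813 regions of the genome were called. Young adult regions were called against infant ones at 15, 7 higher and 8 lower, where 30.6% of regions were, 3.18% higher and 27.5% lower. Mature adult regions were called against young adult ones at 3, the Klf4, Mef2c and Nfe2l2 regions described above, where 1.56% were. Of these 3, the Klf4 and Nfe2l2 regions held peaks at 1 age alone. A region without a peak at some age passed that filter only through the ages that held it. These counts therefore describe the regions and carry no test.

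Peak numbers after scaling were called higher at 4 of the 6 genes, Klf2, Klf4, Thbd and Nfe2l2, in both adult ages. Of all 14452 genes, 30% were called higher in mature adults (43.8% in either direction) and 25.6% in young adults (35% in either direction). The median gene changed by 0.14 and 0.13 after scaling, and by -0.31 and -0.25 as counted. Scaled covered bases were called higher at the same 4 genes, by 0.47 to 0.64 in mature adults and 0.26 to 0.46 in young adults, where 34.1% and 26.1% of genes were called higher (53.1% and 38.6% in either direction). Without scaling neither measure called any of the 4. With peaks within 10 kb alone, the mature adult calls on peak number were lost at Klf2 (limma adjusted p = 0.0956) and Klf4 (limma adjusted p = 0.156), and inside gene bodies at Thbd (limma adjusted p = 0.612). The young adult calls were lost there too (limma adjusted p = 0.950, 0.669 and 0.848). With an equal number of the widest peaks per library, the mature adult calls were lost at Klf2 (0.29, limma adjusted p = 0.197) and Nfe2l2 (0.41, limma adjusted p = 0.143). The young adult calls were then lost at Klf2 (limma adjusted p = 0.954), Klf4 (limma adjusted p = 0.192) and Nfe2l2 (limma adjusted p = 0.184). As counted, none of the 6 was called in young adults by limma, where 18.6% of genes were, with Mef2c at an unadjusted p of 0.0323 and Nfe2l2 at 0.0105. Between mature and young adults limma called none of the 6 on either scale, where 0.844% of genes were called after scaling and 0.927% as counted. At an unadjusted p under 0.05 stood Klf2, Mef2c and Nfe2l2 on both scales. The comparisons with infants share the infant libraries and are not independent.

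**Figure D4:**
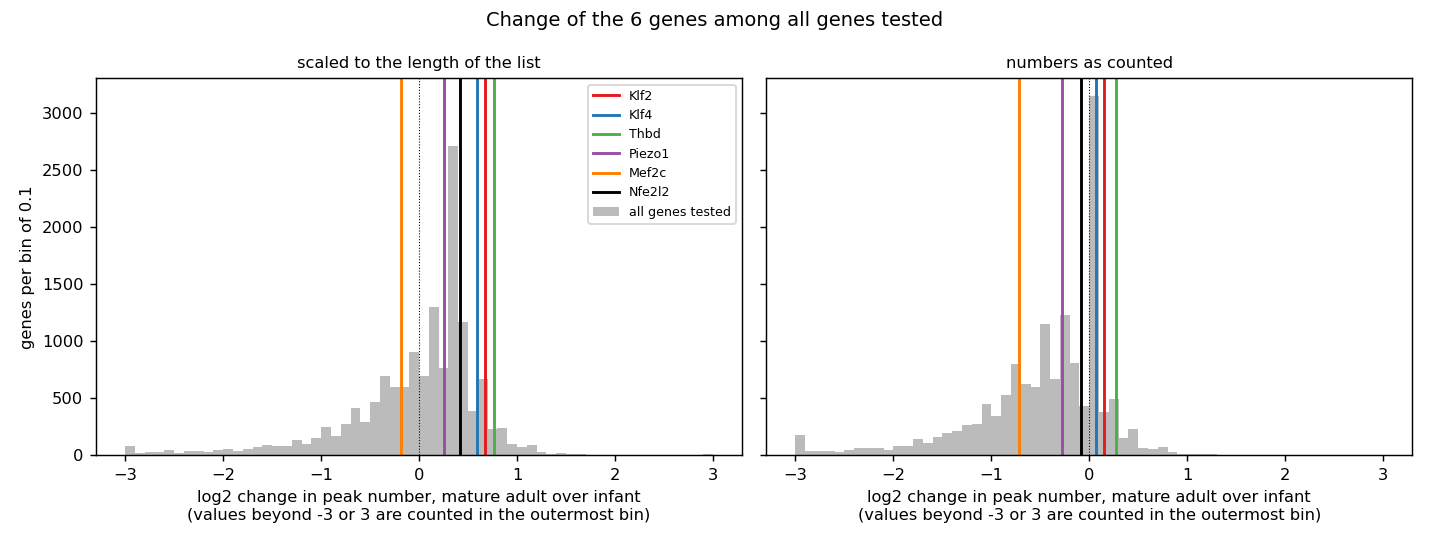
Log2 change of peak number in mature adult over infant libraries, after scaling to the length of the list (left) and as counted (right), with grey bars for the 14452 genes tested in bins of 0.1 and a line per gene of the 6. Thbd at 0.77 and 0.27 lies farthest right in both panels and Mef2c at -0.18 and -0.72 farthest left.

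Peak width was compared at the 6 genes with the same exact test. Mef2c peaks had a mean width of 446 ± 20.0 bp in infant libraries, 395 ± 19.8 bp in young adult libraries and 452 ± 19.6 bp in mature adult libraries (SD, n = 3 each; exact permutation p = 0.0321, unadjusted). It was thus the young adult age that stood apart. Without infant replicate 2, young adult replicate 2 or 3, or mature adult replicate 3 the exact permutation p was between 0.0607 and 0.107. The other genes had exact permutation p of 0.0964 at Nfe2l2, 0.129 at Piezo1, 0.182 at Klf2, 0.396 at Thbd and 0.489 at Klf4. Klf2 passed without young adult replicate 3 (exact permutation p = 0.0179), Piezo1 without infant replicate 3 (exact permutation p = 0.0179) and Nfe2l2 without infant replicate 1 or 2 (exact permutation p = 0.0321 and 0.0143).

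Genes whose scaled cover most resembled each member over the 9 libraries were found among 13206 genes with at least 1 peak in every library. The coefficients are descriptions over the same 9 libraries for every gene. These libraries differ in age and length of list, and their depth is unknown. For Klf2 they were Arl8a (Pearson r = 0.981), Lrrcc1 (0.980) and Rtl8a (0.977), and for Klf4 Zswim4 (0.998), Ppdpf (0.995) and Ttc16 (0.993). For Thbd they were Rpl31, H2ac8 and Cav2 (each 0.995), and for Nfe2l2 Mertk (0.994), Tgm2 (0.986) and Rbm38 (0.985). Likeness was lower for Piezo1, with Psen2 (0.964), Slc24a5 (0.961) and Aff1 (0.953), and for Mef2c, with Hecw2 (0.915), Etl4 (0.910) and Ltb (0.907). Among the 6 genes, Klf4 resembled Thbd (0.951) and Klf2 (0.926), whereas Mef2c lay between -0.30 and 0.03 with the other 5.

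Other genes of the pathway were counted by limma on peak numbers, in mature adults against infants. Of all 14452 genes, 30% were called higher and 13.8% lower after scaling, and 1.44% higher and 29.4% lower as counted. Of 20 flow sensors and junctional signalling genes tested, 8 were called higher after scaling and none lower, and as counted 3 were lower and none higher. Of 15 kinases and MEF2 factors, 6 were higher and 2 lower after scaling, and 1 higher and 4 lower as counted, with both shares of lower calls near those of all genes. Map2k5, which encodes MEK5, the kinase above ERK5, fell on both scales. It had 7, 9 and 7 peaks in infant libraries, 1, 2 and 2 in young adult libraries, and 2, 2 and 2 in mature adult libraries, a change of -1.70 as counted (limma adjusted p = 0.00202) and -1.22 scaled (limma adjusted p = 0.00272). Hdac4, a histone deacetylase that restrains MEF2 factors, also fell on both scales, with 13, 8 and 9 peaks in infant libraries, 6, 6 and 6 in young adult libraries, and 4, 5 and 4 in mature adult libraries. Prkaa1, a catalytic subunit of AMP-activated kinase, rose on both scales, with 2 peaks in each mature adult library against 1 in each infant library.

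Of 17 Krüppel-like factor genes, 10 were higher and 2 lower after scaling, where 30% and 13.8% of all genes were, and 2 higher and 4 lower as counted, where 1.44% and 29.4% were. Klf14 and Klf15 fell on both scales. Klf15 had 9, 10 and 10 peaks in infant libraries, 7, 6 and 5 in young adult libraries, and 4, 5 and 5 in mature adult libraries, and Klf14 had 8 to 10, 2 to 5 and 2 to 4 peaks in the same order of age. Klf16 and Klf17 rose on both scales, Klf16 with 3 peaks in each infant library, 4 in each young adult library and 4 to 5 in mature adult libraries.

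Of 32 genes reported downstream of Klf2 or Klf4, 13 were higher and 5 lower after scaling, where 30% and 13.8% of all genes were, and 0 higher and 7 lower as counted, where 1.44% and 29.4% were. Those lower on both scales were Cyp1b1, a cytochrome P450 raised by flow, Adamts5, a matrix protease, Cxcr4, a chemokine receptor, Gja5, the arterial connexin 40, and Aqp1, a water channel. Cxcr4 had 16, 16 and 15 peaks in infant libraries, 13, 10 and 10 in young adult libraries, and 7, 7 and 7 in mature adult libraries. Gja5 had 11, 9 and 10 peaks in infant libraries, 5, 6 and 5 in young adult libraries, and 5, 5 and 5 in mature adult libraries. The ages did not overlap between infants and adults at either gene. Every mature adult library lay below every infant library at 35.6% of all genes tested, and every young adult library at 27.4%.

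Of 28 regulators and targets of NRF2, 11 were higher and 2 lower after scaling, where 30% and 13.8% of all genes were, and 1 higher and 6 lower as counted, where 1.44% and 29.4% were. Tkt, a transketolase, and Slc7a11, the cystine transporter, fell on both scales, Slc7a11 with 8, 8 and 7 peaks in infant libraries, 5, 5 and 5 in young adult libraries, and 4, 3 and 4 in mature adult libraries. Gclm, the modifier subunit of glutamate-cysteine ligase, rose on both scales, with 1 peak in each infant library, 1, 1 and 2 in young adult libraries, and 2 in each mature adult library. Mafk, a partner of NRF2 on DNA, rose on both scales in young adults, with 4, 4 and 5 peaks against 3 in each infant library. The median change of these lists after scaling was between 0.20 and 0.36, and between -0.25 and -0.03 as counted, beside 0.14 and -0.31 for all genes tested.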

How the data were processed

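ATAC-seq peak lists of 9 libraries were used, 3 per age. The deposited files give chromosome, start and end of each interval, per the file headers, with no reads, height or score. Per the submitters' processing notes, cutadapt, Bowtie2 and Picard were used with build mm10. Which program called peaks, at what threshold and with what shift for the transposase is not given in the sources used here, nor whether starts count from 0 or 1, so positions may be off by 1 bp. Between 31.0% and 38.9% of the distinct intervals of a library stood in more than 1 row, and each distinct interval was counted once.

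Peak numbers and covered bases per gene were scaled to the mean list total and taken as log2(number + 0.5) and log2(bases + 150), for genes averaging 1 peak or more. Peaks of all libraries were merged into regions, and bases covered were tested unscaled as log2(bases + 150), so folds of small values are understated. One fit with limma 3.58.1 (R 4.3.3) held all 9 libraries with age as the only term and a mean-variance trend, and Benjamini-Hochberg adjustment ran over all features, with a threshold of 0.05. It was tested on simulated data. Tables and plots were made with Python 3.11.15, numpy 2.4.6, pandas 2.3.3 and matplotlib 3.10.9.

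The 6 genes and all lists were chosen with earlier results of these data known. Other genes were named where both scaled and unscaled numbers passed in the same direction, up to 6 per list by unscaled change, in mature adults and then in young adults. Likeness used Pearson's r of log2(scaled covered bases + 150). Alternatives changed scaling, repeated rows, the assignment window, pseudocounts, filters, peak selection, single libraries and the replicate block.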

Additional observations from a re-analysis of the deposited data

How the results depend on the processing

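Values for single genes and regions were set against the main fit. A call was kept in its direction, or absent from both fits whatever the sign, for 284 of peaks per gene, 252 of covered bases per gene and 534 of regions. In the same order, 31, 4 and 109 lost the call without turning sign. Another 3, 9 and 1 turned sign with a call in the main fit or the alternative. A call was gained without turning sign by 6 of peaks per gene and 5 of covered bases per gene. Without scaling, 2691 genes were called on peak number in young adults against infants, with 0 of the 6 genes (1 in mature adults), and on covered bases 2 of the 6 at either age. Changes that turned sign without scaling were, on peak number, Klf2 (-0.12), Piezo1 (-0.14) and Mef2c (-0.26) in young adults and Piezo1 (-0.28) and Nfe2l2 (-0.080) in mature adults. On covered bases they were, in young adults, Klf2 (-0.22), Klf4 (-0.040), Thbd (-0.015), Piezo1 (-0.32), Mef2c (-0.43) and Nfe2l2 (-0.020), and in mature adults Klf2 (-0.090), Piezo1 (-0.52) and Nfe2l2 (-0.13). Scaling itself shifts every gene by construction. With peaks within 10 kb, 2 of the 6 were called at either adult age, and Klf4 changed by -0.087 in young adults. With rows as deposited, 2355 genes were called in young adults.

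With the 59793 widest peaks of each library, calls against infants were 1393 (young adult) and 2268 (mature adult) on peak number, 3639 on covered bases in young adults, and 14791 and 21074 regions. Mature against young adults gave 55 genes on covered bases. Of the 6 genes 2 were called on peak number in young adults, 15 of their regions were called in mature adults, and Piezo1's region at 30.9 kb changed by 0.71. Regions found only in infants numbered 0, only in adults 7, and lost by mature adults 0. With all peaks, 2 were found only in adults. The narrowest peak kept was 299 to 354 bp in infant libraries and 150 to 162 bp in mature adult libraries. A region whose infant peaks were all narrower than those kept thus counted as empty in infants. Counting a region as held only where at least 50% of it was covered gave 3 lost by mature adults. The cause of these shifts was not tested.

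Mature against young adults moved most with the libraries. Without both that stand apart, 541 genes (peak number), 787 genes (covered bases) and 4085 regions were called, with 1 of the 6 genes and 6 of their regions. Leaving out 1 library gave 100 to 412 genes, 24 to 716 genes and 1114 to 3564 regions, each highest without young adult replicate 3, and 0 to 1 of the 6 genes and 3 to 6 of their regions. Against infants it gave 1 to 4 of the 6 genes in young adults, 4 to 5 in mature adults, 3526 to 5885 genes on covered bases in young adults, and 17 to 27 member regions in mature adults. For peak width, added after seeing the data, the exact permutation p ran from 0.0179 to 0.339 at Klf2, 0.0179 to 0.354 at Piezo1, 0.0286 to 0.107 at Mef2c and 0.0143 to 0.204 at Nfe2l2.

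Same-numbered libraries did not deviate together (correlations -0.167 to 0.166, 1 of 9 over 0.1). With the replicate number as a block, 65 genes on peak number and 47 on covered bases were called in mature against young adults.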
